A study of Mus musculus with 11 samples.

Results

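The promoters of mouse genes named Zfp (zinc finger protein) followed by a number were examined for chromatin immunoprecipitation (ChIP) reads of ST18. The deposited promoter table holds 21881 windows of 1000 bp, 1 per gene symbol, and 331 of these carry such a name and nothing more. A further 27 names with a letter or suffix after the number, such as Zfp36l1, were left out and used as an alternative. The members were chosen by name, not by any measured value. The table has 1 column of ST18 reads and 1 column of input reads.

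The ST18 reads come from in vitro HA ChIP, in which chromatin is pulled down through an HA tag, and the input is genomic DNA of the same material, which the labels call TN with the cell type brain cell. There are 2 ChIP samples and 1 input sample, and which ChIP sample or samples the ST18 column holds is not stated. The input sample is input by title and description, although its molecule label reads HA ChIP. The labels give no agent, clone or culture number for TN, and their growth protocol repeats that of the 4 ST18 knockdown and 4 control RNA samples of the series, which are not analysed here. No value below has a replicate, so every interval and test covers counting error between these 2 columns and does not compare conditions.

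Zfp genes form one of the largest families of mammalian transcription factors. Most encode arrays of C2H2 zinc fingers that read DNA, and many also carry a KRAB domain, which recruits the corepressor Trim28 and is best known for silencing retroelements. Many of these genes arose by tandem duplication and lie in clusters. ST18 is itself a zinc finger factor, of the small MYT1 family, whose fingers are of a different (CCHC) type and recognise DNA with the core AAGTT.

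In the order of the deposited log2 enrichment, the windows at the top were led by Zfp467, a factor that acts in the choice of mesenchymal precursors between fat and bone, followed by Zfp369, Zfp651, Zfp457, Zfp51, Zfp81 and Zfp706. The lowest were those of Zfp26, Zfp192 (now Zkscan8) and Zfp189. No Zfp window passed the exact two-sided binomial test against the ratio of all promoters after Benjamini-Hochberg adjustment over all 21881 windows, at an adjusted p under 0.05. The lowest adjusted p was 0.0810, for Zfp467. Its ratio was 8.59 times that of all promoters, so a window that did not pass may still differ several-fold. The test called 0.0366% of all windows higher and 0.00914% lower. At an unadjusted exact p under 0.05 there were 28 Zfp windows (8.46%), against 6.88% of all windows.

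The promoter sequences of some of the highest and lowest members are shown to give the DNA around the starts of these genes. They are the 250 bases before the annotated start in RefSeq, build GRCm38.p6, 5′ to 3′ on the strand of the gene. The windows of the table were made on another build, mm9, and where they lie around the start is not stated, so a printed stretch need not lie within its window. Of the 331 members, 269 had a RefSeq promoter entry and 216 had exactly 1. Runs of 5 capitals mark AAGTT or its reverse complement AACTT, and runs of 12 capitals mark the word ACTACATTTCCC or its reverse complement, described further on. The 4 highest members with a single entry are:
Zfp467 (chr6:48445091-48445340, minus strand): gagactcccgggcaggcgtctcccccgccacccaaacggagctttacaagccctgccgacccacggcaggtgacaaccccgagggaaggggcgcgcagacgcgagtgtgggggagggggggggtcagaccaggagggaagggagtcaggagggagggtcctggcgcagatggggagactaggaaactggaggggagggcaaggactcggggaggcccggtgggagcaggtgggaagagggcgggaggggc
Zfp651 (chr9:121759783-121760032, plus strand): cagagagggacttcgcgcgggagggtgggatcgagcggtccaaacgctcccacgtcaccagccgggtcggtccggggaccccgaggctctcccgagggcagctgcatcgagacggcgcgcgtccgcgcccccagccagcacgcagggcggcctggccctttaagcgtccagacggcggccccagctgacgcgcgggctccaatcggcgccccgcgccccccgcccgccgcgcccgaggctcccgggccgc
Zfp457 (chr13:67306413-67306662, minus strand): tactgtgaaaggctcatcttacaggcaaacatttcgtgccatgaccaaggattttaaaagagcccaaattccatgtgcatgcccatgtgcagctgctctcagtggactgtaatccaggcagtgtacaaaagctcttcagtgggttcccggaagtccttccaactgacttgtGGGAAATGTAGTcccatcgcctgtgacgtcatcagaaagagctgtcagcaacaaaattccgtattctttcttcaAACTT
Zfp81 (chr17:33358879-33359128, minus strand): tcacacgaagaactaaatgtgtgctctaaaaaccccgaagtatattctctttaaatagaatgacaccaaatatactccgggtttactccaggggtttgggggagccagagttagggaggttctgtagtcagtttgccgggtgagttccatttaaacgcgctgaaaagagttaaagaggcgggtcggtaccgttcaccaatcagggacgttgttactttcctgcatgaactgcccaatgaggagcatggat

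The 4 lowest members with a single entry are:
Zfp26 (chr9:20460161-20460410, minus strand): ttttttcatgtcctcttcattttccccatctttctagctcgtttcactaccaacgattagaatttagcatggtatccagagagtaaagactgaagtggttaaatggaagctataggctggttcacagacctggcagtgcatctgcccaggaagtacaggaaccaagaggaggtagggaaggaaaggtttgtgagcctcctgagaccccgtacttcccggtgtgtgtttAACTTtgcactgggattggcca
Zfp192 (chr13:21531115-21531364, minus strand): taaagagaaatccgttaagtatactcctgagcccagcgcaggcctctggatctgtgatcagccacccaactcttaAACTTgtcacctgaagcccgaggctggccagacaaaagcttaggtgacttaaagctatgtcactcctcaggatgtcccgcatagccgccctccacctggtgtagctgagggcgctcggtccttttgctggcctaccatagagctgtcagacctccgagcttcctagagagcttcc
Zfp189 (chr4:49520926-49521175, plus strand): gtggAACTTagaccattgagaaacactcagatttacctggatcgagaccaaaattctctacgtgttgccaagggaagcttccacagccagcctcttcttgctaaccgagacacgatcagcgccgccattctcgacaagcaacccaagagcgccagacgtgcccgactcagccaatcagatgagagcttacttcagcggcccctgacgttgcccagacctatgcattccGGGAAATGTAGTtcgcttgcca
Zfp212 (chr6:47920318-47920567, plus strand): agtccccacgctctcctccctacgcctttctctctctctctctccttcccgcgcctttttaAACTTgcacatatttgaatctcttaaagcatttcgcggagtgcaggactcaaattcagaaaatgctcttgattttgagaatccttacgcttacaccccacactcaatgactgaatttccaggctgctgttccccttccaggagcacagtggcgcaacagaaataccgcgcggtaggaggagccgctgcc

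These stretches differed widely in composition within both sets. The stretch of Zfp651 was 77.6% G and C with 38 CpG dinucleotides, and that of Zfp457 was 46.0% with 5. Zfp26 stood at 46.8% with 4 CpG and Zfp189 at 53.2% with 14. AAGTT was found once in each of Zfp457, Zfp26, Zfp192, Zfp189 and Zfp212 and was not found in the stretches of Zfp467, Zfp651 and Zfp81. Of the named highest and lowest members, 16 had such a stretch, and AAGTT was found in 3 of 6 high and 5 of 10 low ones. In the slightly longer 300 bp compared further on, AAGTT was found in 42.6% of 216 Zfp promoters and in 37.6% of all windows with 1 entry.

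Zfp467 held 47 ST18 reads and 2 input reads. The deposited log2 enrichment, which adds a pseudocount of 16 reads to both columns, was 0.96, rank 13 of all windows. Without the pseudocount, its ratio of ST18 to input reads was 8.59 times the ratio over all promoters (Clopper-Pearson 95% interval 2.25 to 73.0). The log2 enrichment also scales the ST18 reads by 0.4055, where the totals of the 2 columns give 0.366. A log2 of 0 thus lies below the ratio over all promoters. Zfp238 at log2 0.01, for instance, had 0.914 times that ratio. Zfp369, listed in RefSeq as NRIF2 and a paralog of a neurotrophin receptor interacting factor, held 33 ST18 reads and 1 input read. Its log2 enrichment was 0.79, rank 33 of all windows, and its fold was 12.1 (2.02 to 491). The wide upper bounds show how little 1 or 2 input reads fix the ratio. These 2 windows were the Zfp members at or above a log2 enrichment of 0.58, 0.604% of 331, while 1.15% of all windows reached that value. No Zfp window reached a log2 enrichment of 1, which 0.0548% of all windows did.

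The next members had fewer ST18 reads than Zfp467 and low input. Zfp651 held 34 ST18 and 4 input reads (log2 0.57, 3.11-fold, 1.11 to 12.1). Zfp457, which RefSeq lists as Rslcan-6, a member of the cluster named for the regulation of sex-limited genes, held 25 and 2 reads (log2 0.54). Zfp51 held 24 and 2 (log2 0.52). In each of these windows the input was below its median of 8 reads over the Zfp windows. Zfp81 held 31 and 4 reads (log2 0.51, 2.83-fold, 1.001 to 11.05), and its interval excluded 1 although its unadjusted exact p was 0.0537. Zfp706, a small factor known from the exit of embryonic stem cells from self-renewal, held 27 and 3 (log2 0.50). Below them, Zfp46 held 36 and 6 reads (log2 0.48), and Zfp566 held 22 and 2 (log2 0.47). Zfp719 and Zfp27 shared the last named place with 25 ST18 and 3 input reads each (log2 0.46). The intervals of these last 4 included 1.

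At the other end, no Zfp window lay at or below a log2 enrichment of −0.58, where 0.219% of all windows lay. By the deposited log2 enrichment, Zfp26 was lowest at 11 ST18 and 13 input reads (log2 −0.50, fold 0.309, interval 0.125 to 0.748). Zfp192 held 13 ST18 and 14 input reads (log2 −0.50, 0.339-fold, 0.147 to 0.779). Zfp189, a factor studied in the prefrontal cortex for its part in stress resilience, held 10 and 12 (log2 −0.48, 0.305-fold, 0.118 to 0.769). In all 3 windows the input exceeded the ST18 count, although the ST18 column is 2.74 times as deep. Zfp212 held 12 ST18 and 13 input reads (log2 −0.47). Zfp945 held 16 and 15 (log2 −0.46). Zfp507 and Zfp273, the latter listed in RefSeq as Rslcan1, held 9 and 11 each (log2 −0.46). These windows had more input than the median Zfp window and fewer ST18 reads than its 20. Zfp763 held 11 ST18 and 12 input reads (log2 −0.45). Zfp281, a regulator of pluripotency genes in embryonic stem cells, held 12 of each (log2 −0.42). Zfp825 held 14 and 13 (log2 −0.42). Both ends of this order were picked by the same counts that give the folds, which exaggerates them, and the adjusted exact p of the 10 lowest was 0.433 or higher. By the fold without a pseudocount the order differs, since the pseudocount moves windows of few reads towards 0. By fold, Zfp369 was the highest member and Zfp943 the lowest, with 1 ST18 and 5 input reads (fold 0.0731, interval 0.00155 to 0.653, log2 −0.36).

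**Figure D1:**
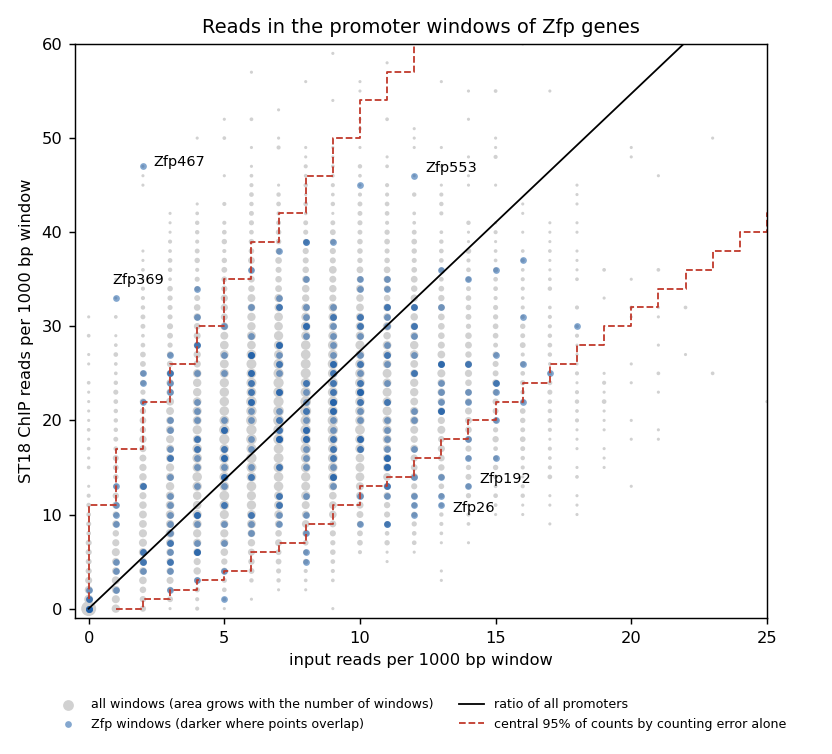
Reads per 1000 bp window, input on the x axis and ST18 ChIP on the y axis, for Zfp windows (blue) and all windows (grey); the black line is the ratio of all promoters and the dashed lines hold the central 95% of counts that counting error alone gives at each total. Zfp467 (47 against 2 reads) and Zfp369 (33 against 1) lie above the band and Zfp26 (11 against 13) and Zfp192 (13 against 14) below it; 35 windows with more reads than the axes show are not drawn.

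The depth of a window, its reads in both columns together, sets how well its ratio is known. Among the deepest, Zfp553 held 46 ST18 and 12 input reads (log2 0.31), Zfp146 held 45 and 10 (log2 0.40), and Zfp930 held 37 and 16 (log2 −0.05). Zfp873 held 36 and 15 (log2 −0.02). Totals of 49 reads were shared by Zfp467, Zfp143 (36 and 13) and Zfp238 (35 and 14). Zfp143 is the mouse form of ZNF143, an activator of many housekeeping promoters, and its fold was 1.01 (0.524 to 2.08). At the other extreme, Zfp534, Zfp931, Zfp600, Zfp97 and Zfp781 had no reads in either column. That is 1.51% of the Zfp windows, against 2.39% of all windows. Zfp345 (2 ST18 reads), Zfp934 (1) and Zfp772 (1) had no input read. A count of 0 allows up to 3 reads, so nothing can be said of the ratio in these 8 windows. Zfp genes have near-identical copies, and how the authors treated reads that match several places is not given in the sources used here, so counts in such windows are uncertain.

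The spread of the 331 windows was compared with counting error. The depth of a typical window was low, with a median of 20 ST18 reads (interquartile range 14 to 26) and 8 input reads (5 to 10), against medians of 20 and 7 over all windows. Zfp296, a window near the middle, held 24 and 9 reads. The interval of its fold ran from 0.437 to 2.38, so its counts fix the ratio only within that range. That range is not a limit of detection, since Zfp467 at 8.59-fold did not pass adjustment over all windows. The SD of the log2 enrichment over the Zfp windows was 0.230, and counting error alone, computed from the binomial distribution of each window at its own total, gives 0.194. The observed SD was thus 1.19 times that of counting error, and over all windows it was 1.16 times (0.225 against 0.193).

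A second measure, the squared deviation of the ST18 count from its binomial expectation divided by the binomial variance, has a mean of 1 under counting error alone. Its mean was 1.42 over the 326 Zfp windows with reads and 1.33 over the windows of other genes. The Zfp windows were thus more spread than counting error, by an amount near that of promoters in general. The ST18 and input counts themselves varied more than Poisson counts would, with variance over mean of 4.06 and 1.83. Over the windows of all genes up to the highest Zfp total these were 4.05 and 1.78. Across the Zfp windows the columns had a Pearson correlation of 0.45, a description over 331 windows that share both libraries.

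More Zfp windows had an interval wholly below the common ratio than wholly above it. The exact 95% interval of the fold lay above 1 in 7 Zfp windows (2.11%), where counting error alone gives 4.22 windows, and 2.37% of all windows did so. It lay below 1 in 16 Zfp windows (4.83%), where counting error alone gives 5.05, and 3.24% of all windows did so. Besides the lowest members named above, these 16 included Zfp652, Zfp61, Zfp958, Zfp616, Zfp101 and Zfp943, with log2 values from −0.42 to −0.36. With a 99% interval, 2 windows lay above 1 and 2 below. The 7 windows above 1 held at most 4 input reads each, and 15 of the 16 below held 8 or more.

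**Figure D2:**
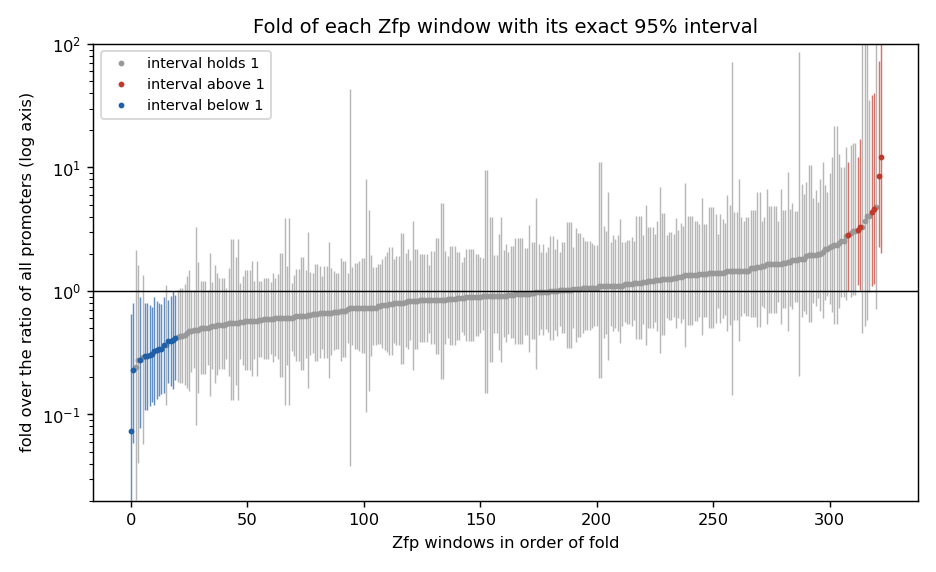
Fold of the ST18 to input ratio over that of all promoters (y axis, log scale) for the Zfp windows with input reads, in order of fold on the x axis, with exact 95% intervals cut at 0.02 and 100. The 7 red windows have intervals above 1, the 16 blue ones below 1, and all others hold 1.

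Summed over all Zfp windows there were 6564 ST18 and 2556 input reads. The summed ratio was 0.939 times that over all promoters (Clopper-Pearson 95% interval 0.897 to 0.983). Across windows, the median log2 enrichment was 0.01 (interquartile range −0.13 to 0.18), against 0.04 (−0.10 to 0.19) over all windows. A log2 value above the median of all windows was held by 145 Zfp windows (43.8%), where 49.6% of all windows held one. The interval of the summed ratio covers counting error only, and the spread between windows exceeded that error, so the interval is too narrow for a statement on other windows of this kind.

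The summed ratio was higher in windows with more reads, in Zfp windows and in the rest alike, where the number of reads includes the ST18 reads themselves. In windows of 1 to 19 reads the summed fold was 0.784 over 68 Zfp windows and 0.817 over other windows. At 20 to 29 reads it was 0.844 over 106 Zfp windows and 0.927 over the others, and at 30 to 39 reads 0.983 over 109 and 1.04. At 40 reads or more it was 1.09 over 43 Zfp windows and 1.16 over the others. The Zfp value was the lower one in all 4 classes. The squared deviation was highest at 20 to 29 reads, with a mean of 1.84 against 1.32 in other windows, and 12 of the 23 windows whose interval left out 1 were in this class. In the other 3 classes it was 1.28, 1.20 and 1.20, each below that of other windows (1.38, 1.23 and 1.49).

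**Figure D3:**
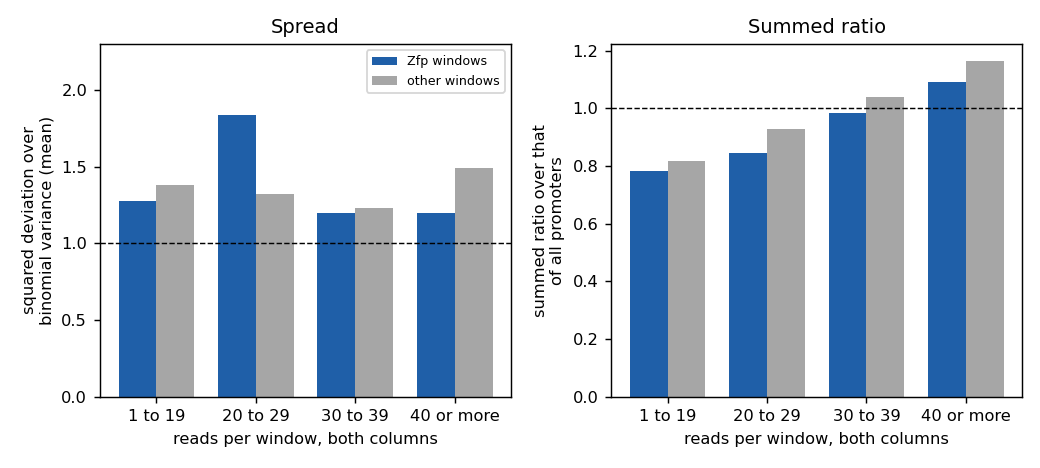
Zfp windows (blue) and other windows (grey) by the number of reads in both columns (x axis). The left panel gives the mean squared deviation over the binomial variance, where 1 (dashed) is counting error alone, and is highest for Zfp windows of 20 to 29 reads (1.84); the right panel gives the summed ratio over that of all promoters, where the Zfp bar is the lower one in each class.

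Known roles of the proteins gave 4 lists, which overlap and were chosen with earlier results of these data known. Zfp36 is in both the RNA and the mesenchyme list, and Zfp423 and Zfp521 are in both the neural and the mesenchyme list. The list for RNA, ribosome, ubiquitin, SUMO and spindle functions, whose proteins mostly do not act as promoter-binding factors, had 14 measured genes with 294 ST18 and 147 input reads. Its summed fold was 0.731 (exact 95% interval 0.598 to 0.897), and 12 of its 14 genes had a fold below 1. Of the windows with input reads, 56.7% of the Zfp windows and 50.1% of all windows had one. Its median log2 enrichment was −0.14, against 0.04 over all windows, and 2 of 14 lay above that median. Zfp830, a protein of the splicing and DNA damage machinery, was lowest with 22 ST18 and 16 input reads (log2 −0.36). Zfp598, the ubiquitin ligase that senses collided ribosomes, held 12 and 10 (log2 −0.32). Zfp36 (tristetraprolin), which speeds the decay of AU-rich mRNAs, held 25 and 12 (log2 −0.10). The highest were Zfp451, a SUMO ligase, with 35 and 8 reads (log2 0.33), and Zfp259 (Zpr1) with 20 and 5 (log2 0.20). The interval of each of the 14 windows included 1. The summed intervals of the lists, and of the runs further on, cover counting error only. The spread between Zfp windows exceeded that error, so these intervals may be too narrow.

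The list for mesenchyme, fat, bone, skin and immune cells lay at the other side. Its 12 measured genes held 290 ST18 and 75 input reads, a summed fold of 1.41 (1.09 to 1.85), with a median log2 of 0.28 and 7 of 12 above the median of all windows. Zfp467 is part of this list. Without it the fold was 1.22 (0.933 to 1.60) and the interval included 1. Among the rest, Zfp366 (DC-SCRIPT, a dendritic cell factor) held 28 and 4 reads (log2 0.45) and Zfp750, a regulator of epidermal differentiation, held 29 and 6 (log2 0.34). Zfp219, a partner of Sox9 in cartilage, held 32 and 7 (log2 0.33). Zfp516, a brown fat factor, was lowest with 18 and 10 (log2 −0.16).

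Genes with roles in neural development and glia showed no common shift. The 14 measured windows held 313 ST18 and 116 input reads (0.986-fold, 0.795 to 1.23), with 7 of 14 above the median of all windows. Zfp365 held 23 and 3 reads (log2 0.41) and Zfp536, a repressor of neuronal differentiation, 39 and 8 (log2 0.41). Zfp238 (RP58, now Zbtb18), a repressor needed for cortical neuron development, held 35 and 14 (log2 0.01). Zfp423 and Zfp521, related factors of neural and fat precursors, held 19 and 9 (log2 −0.08) and 9 and 4 (log2 −0.03). Zfp488, an oligodendrocyte factor, held 17 and 8 (log2 −0.07), and Zfp191 (now Zfp24), which is needed for myelination, held 25 and 17 (log2 −0.34). Only Zfp189 in this list had an interval that left out 1.

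The list for pluripotency, imprinting and retroelement silencing had 14 measured windows with 255 ST18 and 98 input reads (0.951-fold, 0.751 to 1.21), and 7 of 14 lay above the median of all windows. Zfp534, without reads, is among the 14. Zfp57 and Zfp445, which protect imprinted methylation, held 32 and 11 reads (log2 0.10) and 32 and 9 (log2 0.21). Zfp568, a repressor of placental Igf2, held 24 and 6 (log2 0.23), and Zfp809, which silences retroviral DNA, 19 and 5 (log2 0.17). Zfp42 (Rex1), a marker of embryonic stem cells, held 7 and 5 (log2 −0.16). Zfp281 had the only interval of this list that left out 1. Among these windows no level stood apart beyond counting error except that of Zfp281, and it did not pass adjustment (exact test, adjusted p = 0.541).

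Position along the chromosomes was taken from the gene order of RefSeq, in which 327 members could be placed. Another member was the next protein-coding gene for 154 of these, and 173 had none beside them. The summed fold was 0.933 (0.872 to 0.999) for members with such a neighbour and 0.937 (0.880 to 0.999) for those without, and the median log2 was 0.01 in both. The mean squared deviation was 1.51 and 1.37. For the 54 members in runs of 2 the fold was 0.972 (0.868 to 1.09), and for the 100 in runs of 3 or more it was 0.912 (0.838 to 0.993). Differences between these groups were not tested.

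There were 6 runs of at least 5 neighbouring members. The run from Zfp180 to Zfp94 held 10 genes, with 144 ST18 and 84 input reads, a summed fold of 0.627 (exact 95% interval 0.475 to 0.830). Of its 10 windows 8 had a fold below 1. The lowest by log2 enrichment were Zfp61 (5 ST18 and 8 input reads, log2 −0.41), Zfp94 (8 and 8, log2 −0.32) and Zfp180 (23 and 15, log2 −0.29), and Zfp112 (3 and 4 reads) was second lowest of the run by fold, at 0.274 (0.0402 to 1.62). Zfp111 (21 and 4, log2 0.29) and Zfp93 (16 and 5, log2 0.10) lay on the other side. Leaving out each gene in turn gave folds from 0.562 to 0.668. This run was singled out after its values were seen.

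The intervals of the other 5 runs included 1. The run from Zfp74 to Zfp146 had the highest sum, 1.34-fold (0.991 to 1.83), with Zfp566, Zfp146 (45 and 10 reads) and Zfp382 (22 and 4) leading. The Rslcan run from Zfp455 to Zfp459 stood at 1.19 (0.811 to 1.78), from Zfp457 at log2 0.54 to Zfp455 at −0.19 with 8 and 6 reads. The run from Zfp677 to Zfp948 stood at 1.24 (0.886 to 1.77) and was led by Zfp51 and Zfp52 (39 and 8 reads, log2 0.41). The runs from Zfp84 to Zfp27 and from Zfp786 to Zfp746 stood at 0.911 (0.665 to 1.26) and 0.883 (0.626 to 1.26). Within all 6 runs the members lay on both sides of a log2 of 0.

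**Figure D4:**
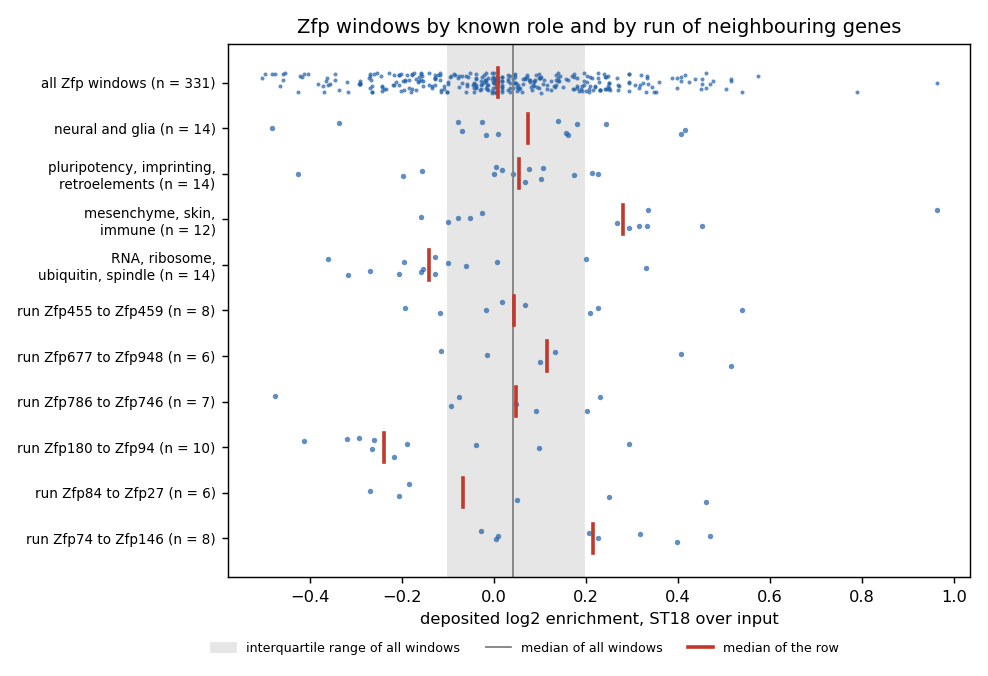
Deposited log2 enrichment (x axis) of all Zfp windows, of the 4 role lists and of the 6 runs of neighbouring members (rows), each point 1 window, with the median of each row in red and the median and interquartile range of all windows in grey. The RNA and ribosome list (median −0.14) and the run from Zfp180 to Zfp94 (median −0.24) lie to the left of the grey line and the mesenchyme list (median 0.28) to its right.

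For 19 members another gene of the table starts within 1000 bp on the opposite strand, in RefSeq. Such windows may share reads. Zfp651 (34 and 4 reads) starts 90 bp from E530011L22Rik, whose window held 27 ST18 and 6 input reads (log2 0.29). Zfp146 (45 and 10) starts 134 bp from Gm5113, whose window held 46 and 8 (log2 0.53). Zfp189 (10 and 12) starts 93 bp from Mrpl50, a mitochondrial ribosomal protein gene, whose window held 14 and 12 (log2 −0.37). The 19 members form 17 pairs, and both log2 values lay on the same side of 0 in 12 of these and on opposite sides in 5. A log2 of 0 lies below the ratio over all promoters, so a split at a fold of 1 differs. Zfp942 and Zfp943, on opposite sides of 0, both had a fold below 1 (0.914 and 0.0731). Zfp507 (9 and 11 reads, log2 −0.46) starts 397 bp from E130304I02Rik, whose window held 24 and 11 (log2 −0.07). Zfp142 (25 and 6 reads, log2 0.25) starts 261 bp from Bcs1l, whose window held 27 and 11 (log2 −0.003). Zfp830 starts 24 bp from the chaperonin gene Cct6b, whose window held 26 and 11 reads (log2 −0.02). Zfp943 (1 ST18 and 5 input reads) and Zfp942 (5 and 2) start 95 bp apart. None of the 19 members had both counts in common with its neighbour.

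The sequence of the promoters was compared over members with exactly 1 RefSeq entry, in the 300 bp from 250 before to 50 after the start. AAGTT, the core of the MYT1 family motif, was found on either strand in 92 of 216 Zfp promoters (42.6%) and in 37.6% of all 13793 windows with 1 entry. Zfp windows with the word had a summed fold of 0.833 (0.762 to 0.912) and those without it 0.985 (0.914 to 1.06). Over all windows the values were 0.975 (0.963 to 0.987) with the word and 1.01 (1.004 to 1.02) without. The Zfp promoters with the word also held less G and C, with a median of 52.3% against 57.8%. The part of base composition in these values was not tested. The longer word AAAGTTT, which contains AAGTT, was found in 6 of the 216 (2.78%) and in 4.42% of all windows with 1 entry. Here the Zfp windows with the word had the higher fold, 0.962 (0.656 to 1.44), against 0.919 (0.868 to 0.975) without it.

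The word of 12 letters held by the most Zfp promoters was ACTACATTTCCC. It was found on either strand in 23 of 216 Zfp promoters (10.6%) and in 116 of 13793 windows with 1 entry (0.841%). The word was picked in the Zfp promoters, so the first share is not independent evidence. The printed stretches of Zfp457 and Zfp189 hold it, and among the 16 stretches of the named highest and lowest members those of Zfp566 and Zfp273 hold it too. Zfp112 held 2 copies. Its holders ran from Zfp457 at log2 0.54 to Zfp189 at −0.48. The summed fold was 0.873 (0.734 to 1.04) in Zfp windows with the word and 0.926 (0.872 to 0.985) in those without. Over all windows it was 0.858 (0.797 to 0.924) with the word and 1.001 (0.994 to 1.01) without. A match describes only the letters and shows no binding.

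Base composition itself went weakly with the enrichment. Across the 216 Zfp promoters the Pearson correlation of the share of G and C with the log2 enrichment was 0.19, and across the other promoters it was 0.13. The points share both libraries and the composition also went with the total number of reads (0.24 and 0.41). In promoters of 5 to 14 CpG dinucleotides the summed fold was 0.878 over 97 Zfp windows and 0.987 over the others. At 15 to 24 it was 0.972 over 78 and 1.01, and at 25 or more 0.923 over 30 and 1.04. Below 5 it was 0.876 over 11 Zfp windows and 0.9495 over the others. The Zfp windows had the lower value in each of the 4 classes.

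Other zinc finger families by name gave summed folds below 1, each with an interval that included 1. The 32 windows named Zbtb and a number had a summed fold of 0.901 (0.784 to 1.04) and the 18 named Zscan or Zkscan 0.867 (0.716 to 1.05). The 16 named Zc3h, which encode CCCH-type fingers, stood at 0.984 (0.802 to 1.21). The 27 Zfp names with a letter or suffix, left out of the members, were not below 1, at 1.002 (0.846 to 1.19). In this order the median log2 enrichment of these sets was −0.02, −0.04, 0.07 and 0.02, against 0.04 over all windows. Differences between these sets and the Zfp windows were not tested.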

How the data were processed

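The deposited promoter table gives raw read counts per 1000 bp window in 1 ST18 and 1 input column, and a log2 enrichment, as deposited by the authors. Per the submitters' processing notes the build is mm9 and the tools TopHat2 2.0.8, HTSeq 0.5.4p1, edgeR, Bowtie and MACS2 2.0.10.20120913, with no tool tied to a file. The deposited log2 values were recomputed from the counts, with the ST18 count scaled by 0.4055 and a pseudocount of 16, within 1e-05. The columns held 438960 ST18 and 160443 input reads, a ratio of 2.74. Members were names of Zfp and digits. From the counts, folds over that ratio and exact Clopper-Pearson 95% intervals were computed with scipy 1.17.1. So were exact two-sided binomial tests, with Benjamini-Hochberg adjustment over all windows. These steps were checked on simulated windows that were deeper than the real ones. The check therefore does not show how many changes are recovered at the depth used here. Reads were not counted as molecules, so intervals cover counting error only. Genes were named as the 10 highest, 10 lowest and 5 deepest members and list members. Members, lists and tests were chosen with earlier results of these data known. The comparison with other families and the word ACTACATTTCCC were added after seeing values. All 331 members matched RefSeq, 318 by their current symbol. The peak list, in mm9, was not used, and protein sequences were not analysed here.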

Additional observations from a re-analysis of the deposited data

How the results depend on the processing

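The summed fold of the Zfp windows stayed below 1 under every alternative run (0.854 to 0.9497), and no Zfp window passed adjustment under any of them. Of the alternative values 16 moved and 51 did not. The counts at log2 0.58 and −0.58, 2 and 0 as reported, became 68 and 50 with a pseudocount of 1 and 19 and 15 with a pseudocount of 8, since a smaller pseudocount pulls less towards 0. With windows of at most 5 input reads left out and the common ratio taken over the windows kept, the 2 windows at 0.58 became 0, the 7 intervals above 1 became 1, the 16 below became 10 and the mean squared deviation went from 1.42 to 1.18. With the ratio of all windows kept, an alternative chosen after seeing the data, this filter gave 0 windows at 0.58, 0 intervals above 1 and 15 below, and a summed fold of 0.854. Low input raises the ratio, so a filter on input removes high windows by construction. The 99% interval left 2 above and 2 below. Without members that neighbour another member, chosen after seeing the data, 4 lay above and 9 below, among 177 windows. The ratio of observed SD to counting SD became 1.14 with a pseudocount of 1. A wider interval or fewer members give fewer by construction. At a median of 28 reads per window, even large increases could fail the adjusted exact test. Zfp369, at 12.1-fold with 33 ST18 reads and 1 input read, had an adjusted p of 0.266 in that test. That no Zfp window passed thus says little about enrichment in windows of typical depth. No paired analysis was possible because the ST18 column carries no replicate number, and leaving out a ChIP replicate could not be done.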
